A study of Mus musculus with 10 samples.

Results

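The conversion of Otx2-/- embryonic stem cells (ESCs) into epiblast-like cells (EpiLCs) was described from 1 RNA-seq library of each state. A gene was taken as a member when it had at least 5 FPKM (fragments scaled by transcript length and by library size) in either of these 2 libraries, which gave 9324 of 22867 gene symbols. Of the members, 7888 had 5 FPKM in both states, 682 in EpiLC only and 754 in ESC only. Closest to that limit were Wls, inside it at 5.00155 FPKM, and Itpripl1, outside it at 4.99827 FPKM. Beside the Otx2-/- pair stand 2 R1 EpiLC libraries, 1 grown without and 1 with activin A, 1 E14 EpiLC library, 2 R1 ESC replicates and 1 E14 ESC library. The series asked what changes when ESCs become EpiLCs and what loss or overexpression of Otx2 does to that. Its remaining 2 libraries were of Otx2-/- ESCs with a tetON Otx2 transgene. The library without doxycycline was used only in a check of the ESC side, and the library with doxycycline in no check.

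All lines were mouse cells of 129SV origin. Every ESC culture had serum-free medium with LIF, 0.8 µM of the MEK inhibitor PD0325901 and 3.3 µM of the GSK3 inhibitor CHIR99021, per the labels' protocols. EpiLCs were made over 48 h in medium with knockout serum replacement and bFGF, and activin A was present at 20 ng/ml in 1 of the R1 cultures. Whether the Otx2-/- and E14 EpiLCs had it is not given in the sources used here. The same holds for the part of Otx2 that is deleted and for the number of Otx2-/- clones. With a single Otx2-/- line and 1 library a state, loss of Otx2 and other differences between the lines cannot be told apart, and the Otx2-/- pair has no replicate check of its own.

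ESCs held with both inhibitors and LIF stand for naive pluripotency, in which Klf4, Esrrb, Tfcp2l1 and related factors keep the network running. When the inhibitors are removed and FGF is supplied, ERK signalling is released, that network is dismantled and a formative programme with Pou3f1, Fgf5 and the de novo DNA methyltransferases is installed. Otx2 encodes a homeodomain factor that binds enhancers together with Oct4 as this happens, and it is later needed for the anterior epiblast and the forebrain.

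Approximate depth was 12.9M fragments in Otx2-/- EpiLC and 20.5M in Otx2-/- ESC, and ran from 6.6M in E14 EpiLC to 20.6M in R1 ESC replicate 2. At 5 FPKM a 2 kb transcript thus rested on about 129 fragments in Otx2-/- EpiLC and 205 in Otx2-/- ESC. Among the ESC libraries R1 replicate 1 was the one least like the rest, so some values that rest on R1 are also given without it. Most R1 list medians and single-gene ratios are given only with it. Among the members were 237 small RNAs, 118 entries of multi-copy families and 128 genes listed at exactly 0 in a library although their median was at least 5 FPKM. These classes are uncertain, and 8921 members lay outside them.

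The markers fitted the labelled states. Summed over 8 naive markers, the level was 172 FPKM in Otx2-/- EpiLC, against 144 to 250.2 in R1 and E14 EpiLC, and 1626 in Otx2-/- ESC, against 1460 to 1667 in R1 and E14 ESC. Summed over 7 EpiLC markers it was 508 FPKM in Otx2-/- EpiLC, against 483 to 627 in R1 and E14 EpiLC, and 59.3 in Otx2-/- ESC, against 52.1 to 97.6 in R1 and E14 ESC. Dnmt3b alone gave 289 of the 508 FPKM, while Otx2, Fgf5 and Sall2 each lay below every other EpiLC library. The Otx2-/- sums of both marker sets lay within the range of the other lines. Summed over 4 pluripotency markers of both states, the level lay outside it, at 886 FPKM in Otx2-/- EpiLC, against 805 to 829 in R1 and E14 EpiLC, and 1219 in Otx2-/- ESC, against 1325 to 1527 in R1 and E14 ESC. The primitive streak markers summed to 4.42 FPKM in Otx2-/- EpiLC, against 5.77 to 8.53 in the other EpiLCs. Of 5 primitive endoderm, 4 trophoblast, 6 fibroblast and 4 primitive streak markers, 0 reached 5 FPKM in either Otx2-/- library. Among 4 neural markers 1 did, Sox1 in EpiLC.

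The Otx2 gene itself (mm9 chromosome 14, 49277859 to 49282547) stood at 15.8 FPKM in Otx2-/- EpiLC, against 107 and 151 in R1 EpiLC without and with activin A and 39.9 in E14 EpiLC. In Otx2-/- ESC it had 7.85 FPKM, against 5.72 and 9.09 in R1 ESC and 3.96 in E14 ESC. The Otx2-/- EpiLC library lay below all 3 EpiLC libraries with the gene, and the Otx2-/- ESC library lay within the range of the other ESCs. Since reads from exons that may remain are counted, the level does not check the label.

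Most of the conversion took place without Otx2. Changes in single pairs were counted when the log2 ratio of (FPKM + 1), EpiLC over ESC, was at least 1 in size, a scale that understates the change of low genes. By that rule 652 members were higher (6.99% of those compared) and 790 lower (8.47%) in Otx2-/- EpiLC. The same rule on the R1 means gave 936 higher (9.52%) and 905 lower genes (9.2%) among 9834, and on the E14 pair 640 higher (6.89%) and 858 lower (9.24%) among 9283. Outside the uncertain classes, 348 of 576 genes higher in Otx2-/- EpiLC were at least 2-fold higher in both R1 and E14 EpiLC (60.4%), 131 in 1 of them (22.7%) and 97 in neither (16.8%). Of 685 lower genes, 374 were lower in both (54.6%), 213 in 1 (31.1%) and 98 in neither (14.3%). Without R1 ESC replicate 1 the shares changed in both became 62.8% of the higher and 58.2% of the lower genes.

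Across the 8921 members outside the uncertain classes, Otx2-/- log2 ratios correlated with those of E14 at r = 0.885 (Spearman 0.831) and with those of R1 at 0.76 (0.645). E14 and R1 correlated at 0.775 (0.672). Leaving out R1 ESC replicate 1 brought the last 2 values to 0.857 (0.787) for Otx2-/- with R1 and 0.855 (0.778) for E14 with R1. The 3 pairs share no library, and genes are not independent replicates, so these are descriptions. On this measure Otx2-/- and E14 cells stood at nearly the same distance from R1.

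**Figure D1:**
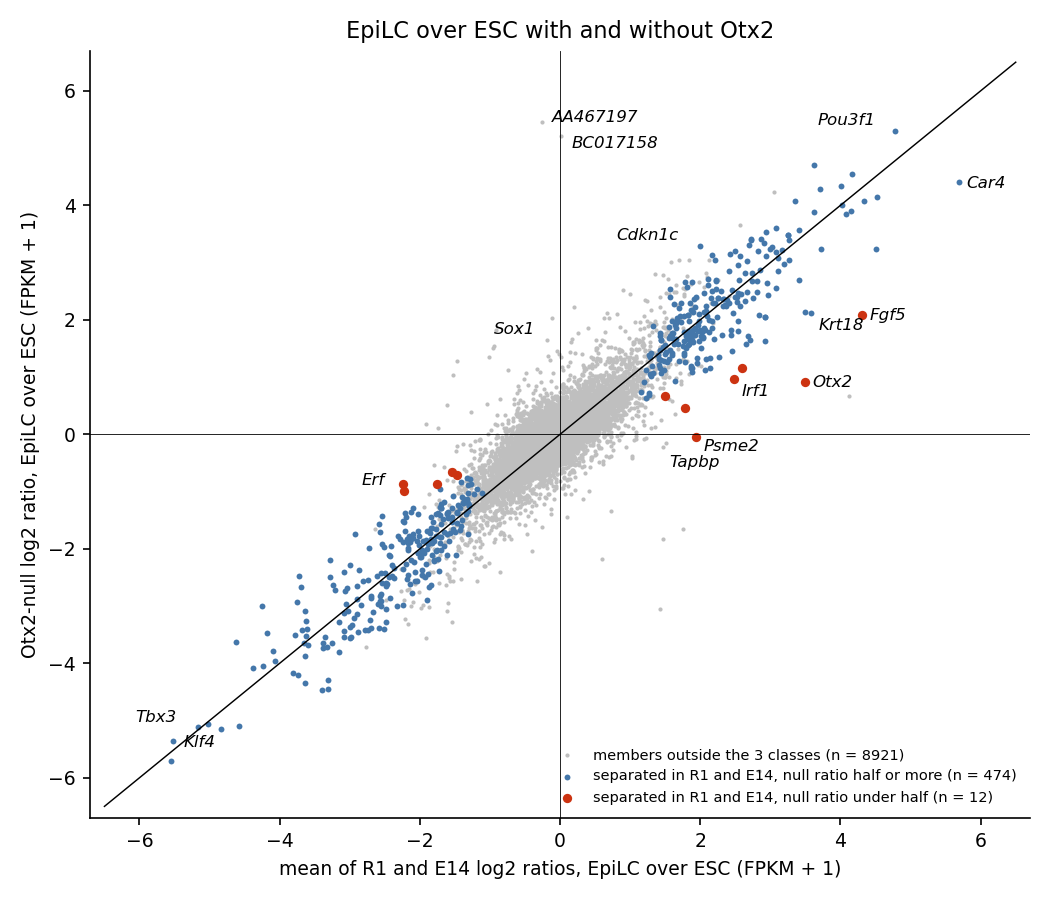
Log2 ratio of (FPKM + 1), EpiLC over ESC, in the Otx2-/- pair (vertical) against the mean of the R1 and E14 ratios (horizontal), 1 point per member outside the 3 uncertain classes (n = 8921), with the line of equal change. Blue and red points are genes separated at least 2-fold in all R1 and E14 libraries; in the red ones, among them Otx2, Irf1 and Psme2, the Otx2-/- ratio was under 0.5 of the mean ratio.

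To read the conversion in libraries that took no part in choosing the genes, genes were chosen in R1 alone, where both EpiLC libraries lay at least 2-fold above or below both ESC replicates. Of 456 genes higher in R1 EpiLC, 325 were at least 2-fold higher in the Otx2-/- pair (71.3%, Wilson 95% interval 67.0 to 75.2) and 336 in the E14 pair (73.7%, 69.5 to 77.5). Of 394 genes lower in R1 EpiLC, 306 were at least 2-fold lower in Otx2-/- cells (77.7%, 73.3 to 81.5) and 319 in E14 cells (81.0%, 76.8 to 84.5). The intervals cover counting over genes only. Both pairs were read on the same genes with 1 library a state, so overlap of the intervals cannot decide whether the pairs differ. The median gene reached 0.757 of its R1 log2 ratio in Otx2-/- cells and 0.795 in E14 cells among the higher genes, and 0.883 and 0.957 among the lower ones. Higher genes that reached 2-fold in E14 and not in Otx2-/- cells numbered 47, those that did so in Otx2-/- and not in E14 cells 36, and 84 did so in neither. For lower genes these counts were 36, 23 and 52. With R1 ESC replicate 1 as the only R1 ESC library, 1007 higher genes were chosen and the shares fell to 38.5% in Otx2-/- and 40.8% in E14 cells; among 1355 lower genes they were 28.6% and 30.5%. Without that replicate they were 69.3% and 69.8% of the higher and 76.0% and 77.1% of the lower genes.

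**Figure D2:**
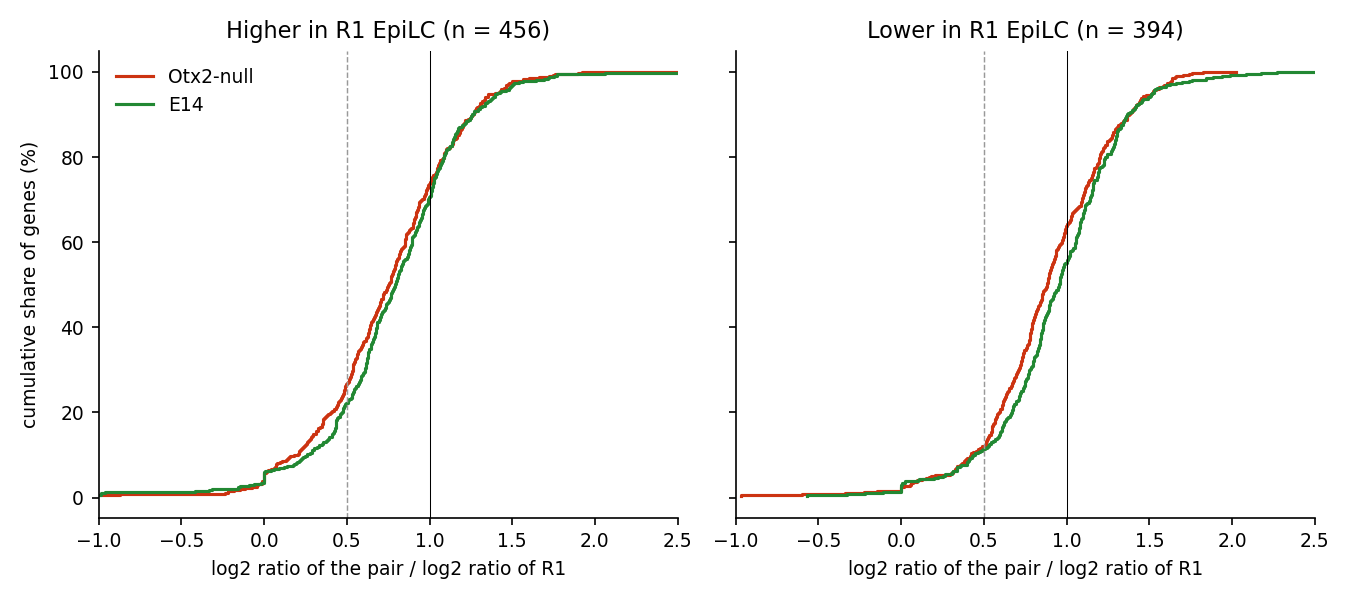
Cumulative share of genes (vertical, %) by the log2 ratio of a pair divided by the R1 log2 ratio (horizontal), for 456 genes higher and 394 genes lower in R1 EpiLC; red is Otx2-/-, green E14, the dashed line 0.5 and the solid line 1. The curves run close together, with 121 Otx2-/- and 100 E14 ratios under 0.5 on the left and 47 and 44 on the right.

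As a set, naive genes fell by about as much in Otx2-/- cells as in R1 and E14, though single genes differed. Of 14 naive transcription factors, all members, 12 were at least 2-fold lower and 1 higher in Otx2-/- EpiLC than in Otx2-/- ESC; the median log2 ratio was -3.43, against -0.05 over all members. In the same genes the median was -2.90 in R1 (-2.95 without ESC replicate 1) and -3.40 in E14. In 6 of the 14 the Otx2-/- response lay above those of both R1 and E14, against 32.3% of all members. In 3 it lay below both, against 27.9%. Klf2, another naive factor, fell less, with an Otx2-/- log2 ratio at 0.663 of the mean of the R1 and E14 ratios. Klf4, a core naive factor, had 1.03 FPKM in Otx2-/- EpiLC and 82.1 in Otx2-/- ESC. In R1 and E14 EpiLC it had 0.840 to 1.09 FPKM and in their ESCs 73.7 to 101, so the Otx2-/- values lay inside both ranges. Tfcp2l1, which supports self-renewal downstream of LIF and Stat3, had 4.15 FPKM in Otx2-/- EpiLC and 175 in Otx2-/- ESC, against 3.58 to 8.79 in R1 and E14 EpiLC and 117 to 175 in their ESCs. Tbx3 stood at 0.676 FPKM in Otx2-/- EpiLC and 57.3 in Otx2-/- ESC, a log2 ratio of -5.12. The homeobox gene Gbx2 was the higher one, with 27.2 FPKM in Otx2-/- EpiLC and 9.57 in Otx2-/- ESC. Its log2 ratio was 1.41, against -0.40 in R1 (0.47 without ESC replicate 1) and 0.83 in E14. Dppa3, a maternal factor also active in germ cells, stayed under 5 FPKM in both Otx2-/- libraries and is not a member; its log2 ratio was 1.32 in Otx2-/-, 1.08 in R1 and 1.07 in E14.

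The 10 largest decreases among members outside the uncertain classes, Klf4, Tbx3 and Tfcp2l1 included, were mostly shared. Jam2, a junction adhesion molecule gene, had 0.852 FPKM in Otx2-/- EpiLC and 96.0 in Otx2-/- ESC (log2 ratio -5.71), against -5.14 in R1 and -5.96 in E14. Tcl1, a coactivator of Akt, the water channel gene Aqp3, the fatty acid carrier gene Fabp3 and the autophagy receptor gene Calcoco2 had log2 ratios between -5.15 and -4.45. Fabp3 and Calcoco2 followed E14 more closely than R1: Fabp3 had 13.3 FPKM in Otx2-/- EpiLC, against 13.1 in E14 EpiLC and 46.3 and 56.7 in R1 EpiLC. Setd5, first by its log2 ratio of -5.87, was listed at 0 in 6 of the 8 libraries, Otx2-/- EpiLC among them, and is not read as a change.

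Of 15 further naive genes, 10 were at least 2-fold lower and 0 higher, with a median of -2.33 in Otx2-/-, -1.64 in R1 and -2.67 in E14. Of 9 genes of the LIF and Stat3 pathway, 6 were lower and 1 higher, with a median of -1.35 in Otx2-/-, -0.77 in R1 and -1.38 in E14. Socs3, a feedback inhibitor that Stat3 induces, had 2.74 FPKM in Otx2-/- EpiLC and 38.6 in Otx2-/- ESC, and Stat3 itself 4.48 and 32.2. The Otx2-/- value of Stat3 lay below the 6.77 to 10.9 FPKM of the other EpiLCs.

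Formative genes were gained by about as much as in R1 and E14. Of 16 formative transcription factors, 9 were at least 2-fold higher and 0 lower in Otx2-/- EpiLC (median 1.47; 1.25 in R1 and 1.30 in E14). Of 15 other formative genes, 13 were higher and 0 lower (median 2.96, against 2.68 in R1 and 3.52 in E14). Without ESC replicate 1 the R1 median was 3.27, so the Otx2-/- median then lay below both. Pou3f1, the POU factor Oct6, had 74.2 FPKM in Otx2-/- EpiLC, against 72.2 and 42.0 in R1 EpiLC without and with activin A and 68.9 in E14 EpiLC. In Otx2-/- ESC it had 0.906 FPKM, against 0.921 to 1.66 in R1 and E14 ESC. Its log2 ratio of 5.30 was the largest among members that were also 2-fold higher in R1 and E14 EpiLC.

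Dnmt3b, a de novo DNA methyltransferase, had 289 FPKM in Otx2-/- EpiLC and 36.2 in Otx2-/- ESC, and Dnmt3a had 84.5 and 10.7. Both EpiLC values lay within the ranges of R1 and E14, 159 to 337 and 68.4 to 104 FPKM. Wnt8a, an epiblast Wnt ligand, stood at 28.6 FPKM in Otx2-/- EpiLC, against 29.1 in E14 EpiLC and 7.57 and 9.80 in R1 EpiLC. Vrtn, Epha1, an ephrin receptor, Esrp1, an epithelial splicing regulator, and Cthrc1, a secreted collagen repeat protein, had log2 ratios between 4.14 and 4.34 in Otx2-/- cells. Of these, Esrp1 had 40.6 FPKM in Otx2-/- EpiLC and 41.4 to 42.6 in the others. Among 12 members of the keratin and tight junction list, 7 were higher and 1 lower, and Cldn7, a claudin of tight junctions, had 45.5 FPKM in Otx2-/- EpiLC, against 42.9 to 65.9 in R1 and E14 EpiLC. Of 13 general pluripotency genes, 1 was higher and 0 lower in Otx2-/- EpiLC, against 0 higher and 3 lower in R1 and 0 higher and 2 lower in E14 (median -0.36 in Otx2-/-, -0.67 in R1, -0.50 in E14). In 8 of the 13 the Otx2-/- response lay above those of both R1 and E14, which was so for 32.3% of all members.

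**Figure D3:**
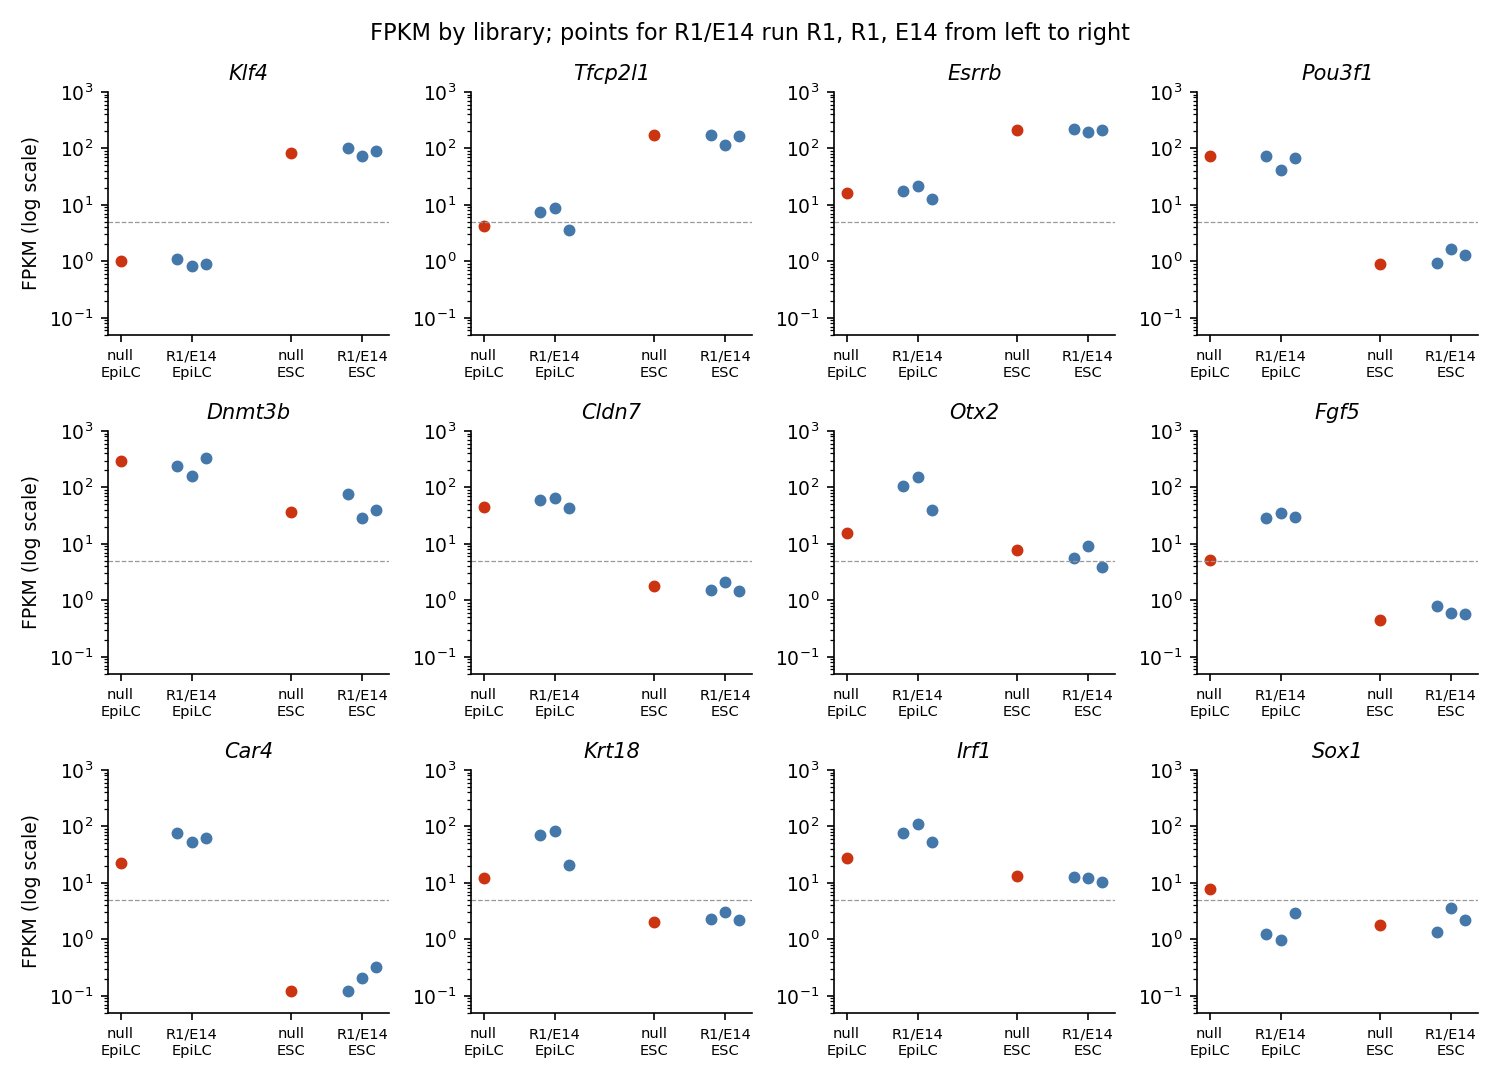
FPKM on a log axis of 12 genes in each library, with Otx2-/- in red and R1 and E14 in blue (R1, R1 and E14 from left to right; the 2 R1 EpiLC points are without and then with activin A), EpiLC on the left and ESC on the right of each panel; the dashed line marks 5 FPKM. Klf4 at 1.03 FPKM and Pou3f1 at 74.2 FPKM in Otx2-/- EpiLC lie with the other lines, whereas Otx2, Fgf5, Car4, Krt18 and Irf1 lie below them and Sox1 above.

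Apart from Otx2, Fgf5 had the lowest ratio to the R1 and E14 response among members of the formative lists whose mean R1 and E14 log2 ratio was over 1. Fgf5, the growth factor that marks the post-implantation epiblast, lies on chromosome 5 at 98683203 to 98706049 (mm9). It had 5.18 FPKM in Otx2-/- EpiLC, against 28.4 and 35.8 in R1 EpiLC without and with activin A and 30.4 in E14 EpiLC. In Otx2-/- ESC it had 0.451 FPKM, against 0.809 and 0.590 in R1 ESC and 0.566 in E14 ESC. It was therefore higher in Otx2-/- EpiLC than in any ESC library and lower than in any other EpiLC library. Its log2 ratio was 2.09 in Otx2-/- cells, 4.28 in R1 and 4.33 in E14, and the difference in response, tested as an interaction in limma over 8 libraries, was -2.20 (SE 0.30), which did not pass (limma adjusted p = 0.235, and 0.0786 to 0.999 over the alternatives).

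Some other epiblast genes were gained to a lower level. Car4, a membrane-bound carbonic anhydrase, had 22.7 FPKM in Otx2-/- EpiLC, against 76.9 and 53.5 in R1 EpiLC without and with activin A and 62.0 in E14 EpiLC. The keratin gene Krt18 had 12.0 FPKM, against 70.9 and 84.6 in R1 and 20.6 in E14 EpiLC. The iron exporter gene Slc40a1 had 9.82 FPKM, against 42.7 and 42.0 in R1 and 15.7 in E14 EpiLC. Sall2, a zinc finger factor, had 11.01 FPKM, against 17.2, 17.5 and 18.4. These 4 were picked for lying below the other 3 EpiLC libraries. Of the 25 markers, 6 did so, Fgf5 and Prdm14 being the others, a share near the 24.7% of all members. Krt18 and Slc40a1 were also lower in E14 than in R1 EpiLC, so that part of the distance from R1 was shared with E14. None passed the interaction test (limma adjusted p = 0.998 each), and their log2 ratios reached 0.773 (Car4), 0.590 (Krt18), 0.719 (Slc40a1) and 0.597 (Sall2) of the mean of R1 and E14.

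The same ratio was taken for every gene outside the uncertain classes whose 3 EpiLC libraries of R1 and E14 lay at least 2-fold above or below their 3 ESC libraries, with 5 FPKM in 1 of the 6. Among 302 genes higher in EpiLC, the median ratio was 0.924 (quartiles 0.729 and 1.07), and 30 stayed under 0.5. Among 259 lower genes it was 0.973 (0.837 and 1.11), and 5 stayed under 0.5. Because R1 and E14 chose these genes, any further pair may fall short of them. With the places of E14 and Otx2-/- exchanged, E14 stayed under 0.5 in 9 of 261 higher genes (3.45%), against 9.93% for Otx2-/-, and in 1 of 250 lower genes. The 30 genes include 23 that never reached 5 FPKM in the Otx2-/- libraries and so are not members: a gene that is off in ESC and is not gained cannot pass that limit.

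Genes of antigen processing and the interferon response stood out among those 30. This class was noticed after the values were seen, and 4 lists for it were added then, so it is a description with no test. The lists held 14 of the 30, and 20 of all 302 higher genes. With E14 in the place of Otx2-/-, they held 0 of the 9 genes under 0.5 and 10 of the 261. That exchanged set required a 2-fold separation in the Otx2-/- libraries too. Listed genes not gained there, such as Psme2 and Igtp, were thus left out before E14 was read. The 0 of 9 therefore cannot show whether the class is particular to Otx2-/- cells. Otx2 and Fgf5 were among the other genes of the 30. Interferons act through Jak kinases, Stat factors and interferon regulatory factors such as Irf1; their targets include the immunoproteasome subunits Psmb8, Psmb9 and Psmb10, the proteasome activator subunits Psme1 and Psme2, the peptide transporter Tap1 and Tap2 with tapasin (Tapbp), the peptide trimming enzyme Erap1 and the guanylate-binding proteins.

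Psmb8 lies on chromosome 17 at 34335140 to 34338399 (mm9). It had 1.28 FPKM in Otx2-/- EpiLC, against 14.1 and 24.4 in R1 EpiLC without and with activin A and 6.47 in E14 EpiLC, and it had 0.0380 FPKM or less in the Otx2-/-, R1 and E14 ESC libraries. Gbp2, a guanylate-binding protein gene (chromosome 3, 142283627 to 142300972), stood at 2.09 FPKM in Otx2-/- EpiLC, against 19.3, 27.9 and 8.95 in R1 without, R1 with activin A and E14. Gbp1, its neighbour in the family, had 1.28 FPKM, against 14.5, 21.5 and 6.19. All 3 were higher in Otx2-/- EpiLC than in the ESC libraries and lower than in the other 3 EpiLC libraries. Oasl2, an antiviral oligoadenylate synthetase-like gene, had 1.43 FPKM, against 13.2, 18.7 and 6.20, and Igtp, an immunity-related GTPase gene, had 1.25, against 14.6, 16.2 and 6.47. The guanylate-binding and immunity-related GTPase genes are closely related copies, among which reads may be split.

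Irf1 was the transcription factor gene of this class among the 7 members with a ratio under 0.5. It lies on chromosome 11 at 53583516 to 53591876 (mm9) and had 27.2 FPKM in Otx2-/- EpiLC, against 76.7 and 108.8 in R1 EpiLC without and with activin A and 52.3 in E14 EpiLC. In Otx2-/- ESC it had 13.4 FPKM, against 13.0 and 12.4 in R1 ESC and 10.5 in E14 ESC, so the states started at like levels. Psme2 had 49.6 FPKM in Otx2-/- EpiLC, against 157 and 205.1 in R1 and 106 in E14 EpiLC, and 51.4 in Otx2-/- ESC, against 33.3, 43.4 and 32.6 in the other ESCs. Psme1, with 49.4 FPKM in Otx2-/- EpiLC and 51.8 in Otx2-/- ESC, and Tapbp, with 10.98 and 12.9, were no higher in EpiLC, whereas R1 and E14 EpiLC had 82.7 to 166 FPKM of Psme1 and 24.6 to 64.2 of Tapbp.

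Not every gene of the class fell short. Psmb10 had 33.5 FPKM in Otx2-/- EpiLC and 7.36 in Otx2-/- ESC, the class I heavy chain gene H2-K1 had 12.3 and 2.37, and Tap1 had 5.09 and 0.476. In each of these 3 genes the Otx2-/- log2 ratio was over 1, at 2.04, 1.98 and 2.04, and the EpiLC level still lay below the other 3 EpiLC libraries. Bst2, which encodes the antiviral membrane protein tetherin, had 119 FPKM in Otx2-/- EpiLC, against 135, 127 and 124 in R1 without, R1 with activin A and E14 EpiLC, and its log2 ratio of 3.54 was above that of R1 (2.77) and E14 (3.10). Socs1, a feedback inhibitor of interferon signalling, had 5.83 FPKM in Otx2-/- EpiLC and 1.45 in Otx2-/- ESC. Its log2 ratio was 1.48, against 1.61 in R1 and 1.52 in E14. Both Otx2-/- levels of Socs1 were low, below the 7.07 to 9.08 FPKM of the other EpiLCs and the 1.82 to 2.41 of the other ESCs.

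Of 10 members in the list of class I and antigen processing genes, 3 were at least 2-fold higher in Otx2-/- EpiLC and 0 lower, against 7 higher in R1 and 5 in E14. Their median log2 ratio was -0.06 in Otx2-/- (0.01 under quantile scaling), 1.71 in R1 (1.60 without ESC replicate 1) and 0.99 in E14. In 7 of the 10 the Otx2-/- response lay below those of both R1 and E14, which was so for 27.9% of all members. Of 8 members among other interferon-stimulated genes, 1 was higher and 7 lower in Otx2-/- EpiLC (median -1.59, against -0.41 in R1 and -1.17 in E14). Ifitm1, an antiviral membrane protein gene, had 29.1 FPKM in Otx2-/- EpiLC, against 34.2 in E14 and 166 and 127 in R1. The rest of the 27 genes on this list, Oasl2, Zbp1 and Parp14 among them, stayed under 5 FPKM in both Otx2-/- libraries. Over all 27 the Otx2-/- median was -0.02, so the decreases describe the members only. Of 10 receptor and signal factor genes, 2 were higher and 1 lower (median -0.49, -0.01 in R1, -0.42 in E14), and of 11 GTPase genes 0 were members. None of the genes named in this class passed the interaction test (limma adjusted p = 0.998 for Irf1, Psmb8, Psme2, Tapbp and Gbp2).

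Activin A and the line E14 moved with the 30 genes as a whole, of which 16 lie outside the interferon lists. Those lists are not complete: the 16 include the interferon-induced gene Ifi35 and the class I gene H2-Q4. In 24 of the 30 genes the R1 EpiLC library with activin A was above that without, as in 101 of the 272 higher genes whose ratio was 0.5 or more. E14 EpiLC was the lowest of the other 3 EpiLC libraries in 27 of the 30 and in 130 of the 272. Activin A in the Otx2-/- and E14 cultures is not given, and its part in the result was not tested.

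**Figure D4:**
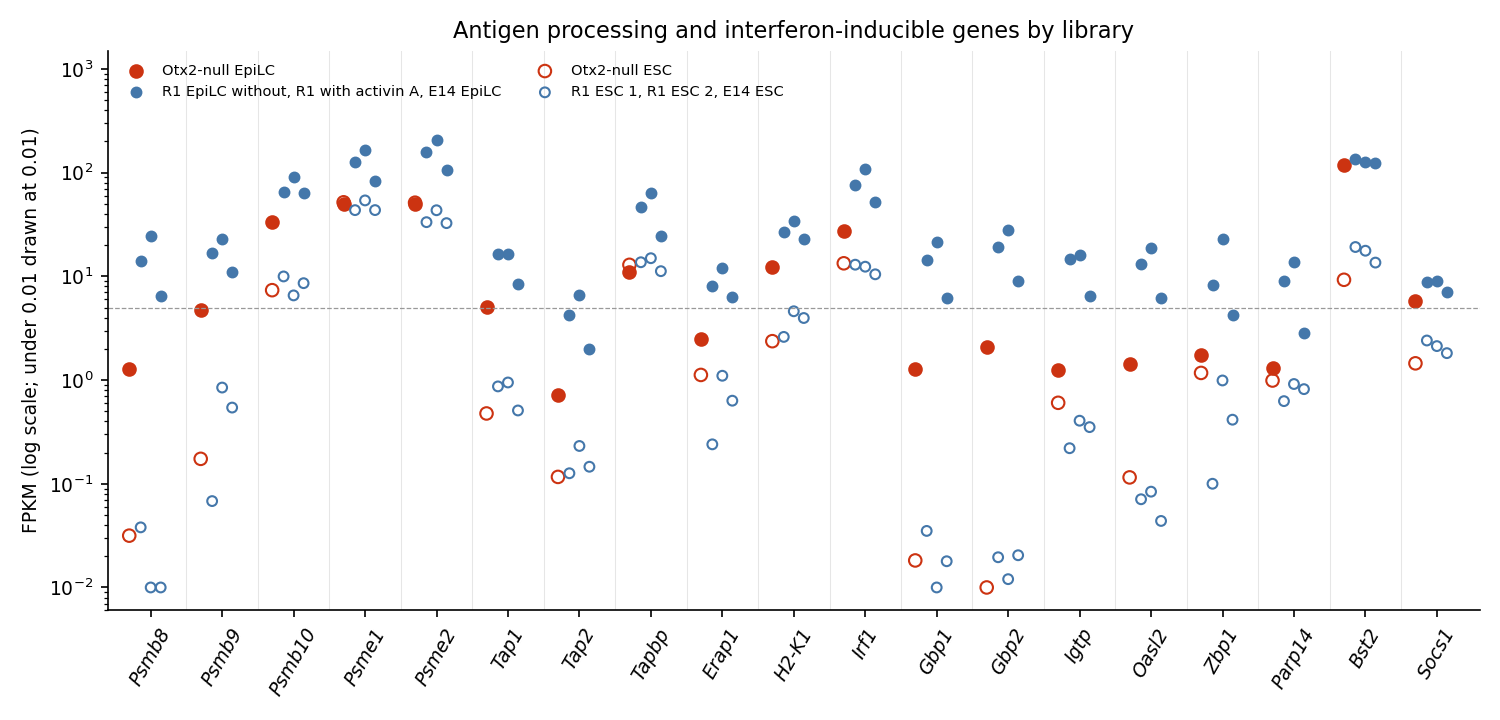
FPKM on a log axis of 19 antigen processing and interferon-inducible genes, with Otx2-/- in red and R1 and E14 in blue, filled symbols for EpiLC and open ones for ESC; the dashed line marks 5 FPKM and values under 0.01 are drawn at 0.01. Filled red points lie below the filled blue ones from Psmb8 to Parp14, and nearly level with them at Bst2.

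Promoter windows of RefSeq on GRCm38.p6, from 250 bases before to 50 after the start of a gene, were searched on both strands for the element that interferon regulatory factors bind, taken as GAAA, any 2 bases and GAAA again, and for TAATCC, the core that Otx-type homeodomains bind. Windows of 3 genes that stayed under 0.5 and of Bst2, which was gained, are shown with the interferon element in capitals, together with that of Fgf5, in which neither TAATCC nor its reverse was found. Gbp2 is at chr3:142620413-142620712 (plus strand), Igtp at chr11:58199306-58199605 (plus), Gbp1, named Gbp2b in RefSeq, at chr3:142594597-142594896 (plus), Bst2 at chr8:71537423-71537722 (minus) and Fgf5 at chr5:98253934-98254233 (plus).
Gbp2: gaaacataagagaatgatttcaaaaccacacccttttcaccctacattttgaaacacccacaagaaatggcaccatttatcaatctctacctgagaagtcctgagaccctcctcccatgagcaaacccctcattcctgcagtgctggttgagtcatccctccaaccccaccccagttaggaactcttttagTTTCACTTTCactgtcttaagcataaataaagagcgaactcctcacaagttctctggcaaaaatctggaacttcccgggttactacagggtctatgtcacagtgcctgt
Igtp: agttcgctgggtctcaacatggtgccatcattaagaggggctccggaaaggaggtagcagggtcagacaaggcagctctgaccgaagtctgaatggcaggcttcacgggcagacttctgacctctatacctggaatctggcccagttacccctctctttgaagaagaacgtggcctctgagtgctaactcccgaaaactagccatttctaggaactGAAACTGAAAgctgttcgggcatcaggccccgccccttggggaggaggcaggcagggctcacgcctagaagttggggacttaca
Gbp1: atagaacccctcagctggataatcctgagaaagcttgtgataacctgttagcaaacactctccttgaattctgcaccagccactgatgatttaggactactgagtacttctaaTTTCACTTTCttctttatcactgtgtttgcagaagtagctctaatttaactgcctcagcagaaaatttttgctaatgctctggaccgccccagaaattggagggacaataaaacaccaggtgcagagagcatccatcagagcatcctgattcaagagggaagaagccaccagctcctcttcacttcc
Bst2: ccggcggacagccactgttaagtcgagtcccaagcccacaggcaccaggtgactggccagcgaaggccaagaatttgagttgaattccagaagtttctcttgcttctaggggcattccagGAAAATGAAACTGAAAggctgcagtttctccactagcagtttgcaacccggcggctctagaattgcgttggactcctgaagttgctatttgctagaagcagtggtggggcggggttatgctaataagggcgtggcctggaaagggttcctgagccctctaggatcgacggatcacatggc
Fgf5: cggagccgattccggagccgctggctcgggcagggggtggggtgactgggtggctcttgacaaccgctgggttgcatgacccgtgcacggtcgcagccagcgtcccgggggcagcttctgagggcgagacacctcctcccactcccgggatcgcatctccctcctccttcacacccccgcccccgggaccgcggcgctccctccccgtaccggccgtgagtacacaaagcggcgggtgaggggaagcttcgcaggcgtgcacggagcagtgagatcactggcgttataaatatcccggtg
In Gbp2 and Gbp1 the element reads on the opposite strand, 59 and 137 bases before the start, and in Igtp on the gene's strand, 34 bases before it. Bst2 holds 2 overlapping copies.

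Of the 30 genes under 0.5, 22 had a window, and 9 of these held the interferon element (40.9%). Of the 272 other higher genes, 204 had a window and 10 held it (4.90%), and it was found in 1079 of 27025 genes with a window overall (3.99%). The element was searched for after the interferon genes had been seen among the 30, so the share describes that same class again. TAATCC was found in 3 of the 22 (13.6%), namely Otx2, Gbp1 and Oasl2, in 7 of the 204 (3.43%) and in 8.14% of all genes with a window. A match of letters is not a site, and Psmb8 and Irf1 had neither.

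Decreases that stayed incomplete were few, and the genes named here were picked for a low ratio. Fzd10, a Wnt receptor gene, had 8.63 FPKM in Otx2-/- EpiLC and 16.6 in Otx2-/- ESC, against 1.41, 1.57 and 4.62 in R1 without, R1 with activin A and E14 EpiLC. Erf, an ETS repressor that ERK controls, had 19.9 FPKM in Otx2-/- EpiLC, against 8.39 to 10.7 in the other EpiLCs, and 40.5 in Otx2-/- ESC, within the 35.3 to 66.5 of the other ESCs. The neurotrophin receptor gene Ngfr had 2.16 FPKM in Otx2-/- EpiLC, against 0.596 to 1.06, and Zfp296, a zinc finger gene of pluripotent cells, 12.1, against 7.51 to 7.98. In all 4 the Otx2-/- EpiLC library lay above the other 3, which was so for 28.2% of all members, and none passed the interaction test (limma adjusted p = 0.998).

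BMP targets belong here in part. Of 6 members, 4 were at least 2-fold lower and 1 higher in Otx2-/- EpiLC, with a median of -1.44 in Otx2-/-, -2.01 in R1 and -2.41 in E14. The R1 median was -1.38 without ESC replicate 1, which had 38.2 FPKM of Id3, against 5.42 in replicate 2. Id1, an inhibitor of basic helix-loop-helix factors, had 2.98 FPKM in Otx2-/- EpiLC, against 1.49 to 1.90 in the others, and 9.26 in Otx2-/- ESC.

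Some genes were gained beyond the level of the other lines. Sox1, a factor of the neural plate, had 7.73 FPKM in Otx2-/- EpiLC and 1.78 in Otx2-/- ESC. In R1 EpiLC it had 1.25 and 0.975 FPKM and in E14 EpiLC 2.88, so Otx2-/- EpiLC lay above all. Pax6, Neurog2 and Hes5 stayed low: the 4 neural markers summed to 9.24 FPKM in Otx2-/- EpiLC, most of it Sox1, against 1.54 to 3.46 in the other EpiLCs. Cdkn1c, an imprinted inhibitor of cyclin-dependent kinases, had 85.2 FPKM in Otx2-/- EpiLC, against 14.2, 13.2 and 28.6 in R1 without, R1 with activin A and E14 EpiLC, with 7.84 in Otx2-/- ESC and 2.64 to 5.06 in the other ESCs. The interaction was 1.99 (SE 0.67) for Sox1 and 1.39 (SE 0.45) for Cdkn1c, and neither passed (limma adjusted p = 0.998). Both responses were above those of R1 and E14, which was so for 32.3% of all members.

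In Utf1, Lef1 and Peg10 the ESC level differed as well. Utf1, a chromatin factor of pluripotent cells, had 346 FPKM in Otx2-/- EpiLC, within the 260 to 372 of the other EpiLCs, but 83.5 in Otx2-/- ESC, against 163 to 256 in the other ESCs. Lef1, a transcription factor of the Wnt pathway, had 19.7 FPKM in Otx2-/- EpiLC, above the 9.97 to 11.6 of the others, and 4.06 in Otx2-/- ESC, below their 5.56 to 8.78. Peg10, an imprinted gene derived from a retrotransposon, resembled Utf1, with 167 FPKM in Otx2-/- EpiLC, within 126 to 183, and 24.7 in Otx2-/- ESC, below 50.4 to 69.8.

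Signalling lists kept their direction. Of 11 ERK targets and feedback genes, 7 were at least 2-fold higher and 0 lower in Otx2-/- EpiLC, with a median of 1.41 in Otx2-/-, 0.64 in R1 and 1.25 in E14. Dusp6, the phosphatase gene that ERK induces, had 48.6 FPKM in Otx2-/- EpiLC, against 44.5 and 30.1 in R1 without and with activin A and 74.7 in E14. Of 8 FGF ligands and receptors, 4 were higher and 0 lower; Fgf8 had 8.75 FPKM in Otx2-/- EpiLC, against 1.45 and 2.28 in R1 and 6.99 in E14, and Fgf15 8.87, against 6.31, 15.2 and 19.8. Of 16 Nodal and Activin genes, 5 were higher and 1 lower (median 0.33 in Otx2-/-, 0.41 in R1, 0.32 in E14).

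Metabolic and matrix genes had medians in Otx2-/- cells nearer to E14 than to R1. Of 17 cholesterol synthesis genes, 8 were at least 2-fold higher and 0 lower (median 0.83 in Otx2-/-, 1.04 in R1, 0.88 in E14). Of 18 glycolysis genes, 4 were lower and 1 higher (median -0.33, against 0.19 in R1 and -0.57 in E14). Hk1, a hexokinase gene, had 12.3 FPKM in Otx2-/- EpiLC and 39.0 in Otx2-/- ESC, near the 15.3 and 36.3 of E14, while R1 had 24.1 and 31.2 in EpiLC and 16.2 and 35.7 in ESC. Of 15 matrix and integrin genes, 8 were lower and 2 higher (median -1.27, against -0.61 in R1 and -1.12 in E14). In 10 of those 15 the Otx2-/- response lay below those of both other lines, against 27.9% of all members. Nid1, a basement membrane linker, had 4.05 FPKM in Otx2-/- EpiLC, against 7.68 and 11.2 in R1 and 5.82 in E14, and 97.6 in Otx2-/- ESC, against 44.4 to 101 in the others. Lama5 was listed at 0 in Otx2-/- EpiLC and in R1 EpiLC with activin A and is counted among the 8. Without it 7 of 14 were lower, 9 had the Otx2-/- response below both, and the median was -1.07 in Otx2-/-, -0.42 in R1 and -1.15 in E14.

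**Figure D5:**
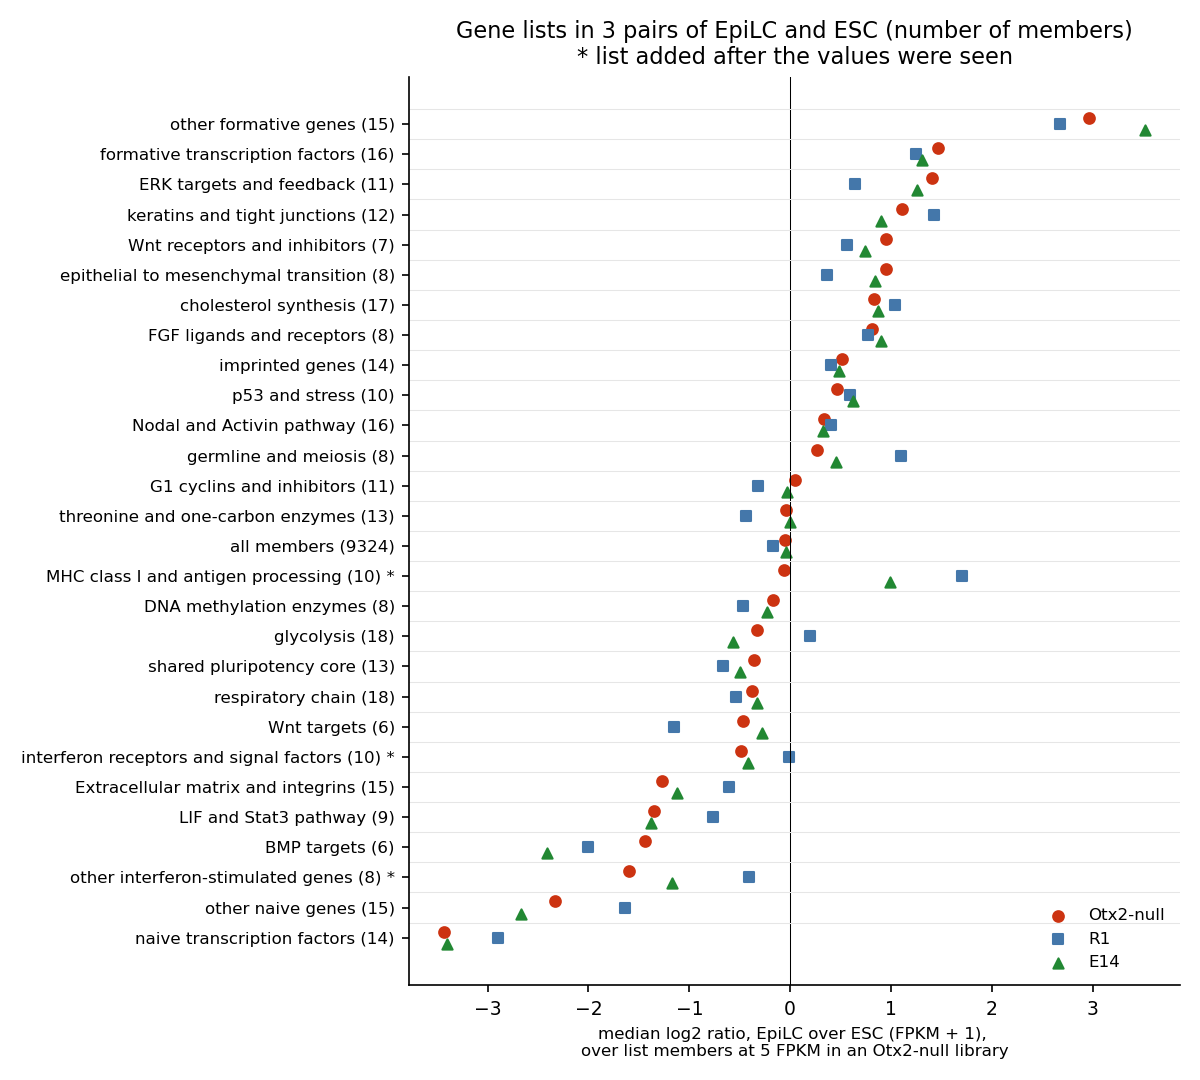
Median log2 ratio of (FPKM + 1), EpiLC over ESC, over the members of each gene list (number of members in brackets) in the Otx2-/- (red circle), R1 (blue square) and E14 (green triangle) pairs, with the median of all members for comparison. The naive factors lie lowest and the other formative genes highest in all 3, and the antigen processing list, at -0.06 in Otx2-/-, 1.71 in R1 and 0.99 in E14, has its Otx2-/- point left of both.

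The interaction test asked of each gene whether the Otx2-/- response differed from that of R1 and E14. The spread was taken from the R1 and E14 libraries, and the 2 lone Otx2-/- libraries are assumed to share it. With so few libraries, a gene that did not pass is not thereby shown to respond alike. Of 12271 genes tested, 22 had a higher (0.179%) and 12 a lower Otx2-/- response (0.0978%), and 212 had an unadjusted p under 0.05 (limma). Small RNAs were 25 of the 34. Another 7 were listed at 0 in 1 Otx2-/- library and expressed in all others: Fancd2 and Kdm4a in EpiLC, and Hnrnpa3, Mgrn1, Nudt16l1, Setd1a and Ubp1 in ESC. The R1 and E14 response, in the same fit, passed in 1175 higher (9.58%) and 1260 lower genes (10.3%). These counts rest on few libraries: without R1 EpiLC lacking activin A the interaction gave 10 higher and 0 lower calls, and without E14 ESC or E14 EpiLC 26 and 25 lower ones. For the R1 and E14 response, calls numbered 145 higher and 119 lower without R1 EpiLC lacking activin A, and 1830 higher and 2190 lower without R1 ESC replicate 1.

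The 2 calls that remained were genes gained in Otx2-/- EpiLC alone. BC017158, on chromosome 7 at 135409211 to 135441645 (mm9), had 190 FPKM in Otx2-/- EpiLC, against 1.77, 1.93 and 3.66 in R1 without, R1 with activin A and E14 EpiLC. Its level was 4.18 FPKM in Otx2-/- ESC, against 1.97 to 3.14 in the other ESCs. AA467197 (chromosome 2, 122463623 to 122466812) stood at 51.6 FPKM in Otx2-/- EpiLC, against 0.0772 and 0.169 in R1 EpiLC, was listed at 0 in E14 EpiLC, and had 0.201 FPKM in Otx2-/- ESC. Their responses exceeded those of R1 and E14 by 5.23 (SE 0.28, limma adjusted p = 0.00422) and 5.70 (SE 0.34, limma adjusted p = 0.00607) on the log2 scale. Both calls ended without the R1 EpiLC library lacking activin A (limma adjusted p = 0.0581 and 0.0628). Over all alternatives, limma adjusted p ran from 0.000636 to 0.0581 for BC017158 and from 0.000467 to 0.281 for AA467197.

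Among genes nearly flat in R1 and E14, few others changed 2-fold in Otx2-/- cells. By the 2-fold rule alone, 97 higher and 98 lower genes outside the uncertain classes passed it in neither R1 nor E14. Of 3970 members with log2 ratios under 0.5 in size in both R1 and E14, 9 were at least 2-fold higher and 7 lower in Otx2-/- EpiLC. Besides the 2 above, Cntfr, a cytokine receptor gene, had 17.0 FPKM in Otx2-/- EpiLC and 4.27 in Otx2-/- ESC, against 9.61 in E14 EpiLC and 1.57 and 1.60 in R1 EpiLC. Jund, an AP-1 factor gene, had 39.3 FPKM in Otx2-/- EpiLC, above the 25.8 to 27.5 of the others, and 16.7 in Otx2-/- ESC, below their 18.6 to 29.0. Ccnf, the cyclin F gene, had 81.0 FPKM in Otx2-/- EpiLC, below 106 to 203, and 168 in Otx2-/- ESC, within 100.3 to 182.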

How the data were processed

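Per the labels' protocols, libraries came from polyadenylated RNA by random-hexamer priming and were read on an Illumina Genome Analyzer, and strand marking is not mentioned. The deposited values are FPKM per gene from TopHat and Cufflinks on mm9, per the submitters' processing notes. The sources used here do not give versions, annotation or settings. Each table held 23112 entries; 17 repeats were dropped and 228 entries that shared a symbol were summed, leaving 22867 symbols. Deposited loci count their start from 0; coordinates are given counted from 1.

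Depth is approximate, from the lowest values of 1088 olfactory receptor entries. Single pairs were compared on log2(FPKM + 1) with a limit of 5 FPKM and no test. The difference in response was tested with limma 3.58.1 in R 4.3.3 (two-sided, mean-variance trend) on log2(FPKM + 1) in 8 libraries, for genes averaging 1 FPKM or more, with the line as a covariate and Benjamini-Hochberg adjustment at 0.05; the script was tested on simulated data. FPKM are no counts, so no count model was used. The labels' protocols call the cultures independent replicates, and p-values rest on the spread among 6 R1 and E14 libraries, activin A included. The numbers of replicates pair nothing across the groups.

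The members and the 31 gene lists were chosen with earlier results of these data known, and 4 interferon lists and the interferon element were added after the values were seen. Named genes were Otx2, 25 markers, the 10 largest changes each way in the Otx2-/- pair, the 10 lowest ratios each way, the genes passing the interaction test, the 8 largest changes each way among genes flat in R1 and E14, and up to 4 members of each list; further ones were chosen after their values were seen. A few genes that the rule names are not reported here. Alternatives were other pseudocounts, limits, scalings and left-out libraries. Promoter windows come from RefSeq on GRCm38.p6, which is not the build of the FPKM tables and served for sequence only.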

Additional observations from a re-analysis of the deposited data

Results flagged for a closer look

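Of 12271 genes, 22 had a higher and 12 a lower response in Otx2-/- cells than in R1 and E14, by a limma test of the difference itself (adjusted p under 0.05). After 25 small RNAs and 7 genes listed at 0 in an Otx2-/- library, 2 were left. With the tetON Otx2-/- ESCs without doxycycline as the ESC side, 10 higher and 0 lower genes were left by the same count. With no filter on low values it was 121 and 155, and without R1 EpiLC lacking activin A 0 and 0. The response of AA467197 exceeded that of R1 and E14 by 5.70 on the log2 scale, and that of BC017158 by 5.23. Over the alternatives tried, the limma adjusted p ran from 0.000467 to 0.281 for AA467197 and from 0.000636 to 0.0581 for BC017158, and the difference stayed positive in each. A single Otx2-/- EpiLC library was analysed here, so both rest on 1 library. The tetON Otx2-/- ESCs without doxycycline had 45.8 FPKM of Otx2, against 7.85 in Otx2-/- ESC. They therefore do not stand for a second ESC library without Otx2.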

How the results depend on the processing

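With a pseudocount of 5, 391 genes were higher and 518 lower in Otx2-/- EpiLC, and with a limit of 1 FPKM 983 were higher. The count of higher and lower interaction calls was 10 and 2 with a pseudocount of 0.1, 2 and 0 without small RNAs and genes listed at 0, 154 and 192 with no filter on low values, 6 and 2 when genes averaged 5 FPKM or more, and 7 lower with the tetON Otx2-/- ESCs without doxycycline as the ESC side, an alternative chosen after seeing the data. Leaving out each R1 or E14 library in turn gave 10 to 26 higher and 0 to 26 lower interaction calls, and 145 to 1830 higher and 119 to 2190 lower calls for R1 and E14, with 834 lower under no filter. The share of R1-chosen higher genes reached in Otx2-/- cells was 76.9% with a pseudocount of 0.1, 56.1% with 5 (65.3% in E14) and 65.9% with a limit of 1 FPKM; that of lower genes was 81.6% with a pseudocount of 5, and 76.2% in E14 under quantile scaling. Leaving out R1 libraries gave 38.5 to 69.3% in Otx2-/- and 40.8 to 69.8% in E14 for higher genes, and 28.6 to 76.0% and 30.5 to 77.7% for lower genes, with the lowest values without R1 ESC replicate 2. The median ratio to R1 and E14 ran from 0.778 to 0.954 for higher and from 0.883 to 1.01 for lower genes when libraries were left out, which was added after seeing the data. The formative factor list had a median of 1.61 with a pseudocount of 0.1. The cause of these shifts was not tested. No called value changed direction under the alternatives run. Small medians turned: that of antigen processing was 0.01 under quantile scaling, that of threonine and one-carbon enzymes, -0.04, was 0.01 under median-ratio and 0.02 under quantile scaling, and that of all members, -0.05, was 0.02 under quantile scaling. The calls of AA467197 and BC017158 ended without R1 EpiLC lacking activin A, and that of AA467197 also with a pseudocount of 0.1 and when genes averaged 5 FPKM or more. No paired analysis was possible because the Otx2-/- groups have 1 library each and the labels number only the R1 ESC replicates. Depth limits low genes most in E14 EpiLC, where 5 FPKM on a 2 kb transcript is about 66 fragments.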

Other observations

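Other lists moved with their own genes. Of 14 members among imprinted genes, 3 were at least 2-fold higher and 1 lower in Otx2-/- EpiLC than in Otx2-/- ESC (median 0.52, against 0.40 in R1 and 0.48 in E14). Without 3 entries that include small RNAs or are listed at 0 in a library, the median over 11 was 0.61, against 0.42 in R1 and 0.72 in E14. Plagl1, an imprinted zinc finger gene, had 0.0969 FPKM in Otx2-/- EpiLC, against 0.494 to 0.780 in the other EpiLCs, and 5.09 in Otx2-/- ESC, against 16.0 to 28.2 in the other ESCs; it was low in both states of the Otx2-/- line. H19, an imprinted long RNA, had 6.46 FPKM in Otx2-/- EpiLC, against 122 and 22.4 in R1 EpiLC without and with activin A and 8.55 in E14 EpiLC, so the other EpiLCs differed widely among themselves. Of 8 germline genes 2 were higher and 0 lower (median 0.26, against 1.10 in R1 and 0.45 in E14), and Mael, a gene of the piRNA pathway, had 18.2 FPKM in Otx2-/- EpiLC, against 35.1 to 40.4 in the others. In 7 of those 8 the Otx2-/- response lay below those of both other lines, against 27.9% of all members; the R1 median was 0.33 without ESC replicate 1.

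Of 10 p53 and stress genes 4 were higher and 0 lower, and of 11 cell cycle genes 0 were higher and 1, Ccnd3, lower. Among 8 DNA methylation genes, Dnmt3a and Dnmt3b were higher and Tet2, a dioxygenase gene, lower, at 11.2 FPKM in Otx2-/- EpiLC, against 8.71 to 13.0 in the others. Of 18 respiratory chain genes 0 were higher and 1 lower, and of 13 genes of threonine and one-carbon metabolism 0 were higher and 1 lower. That one was Tdh, threonine dehydrogenase, with 41.8 FPKM in Otx2-/- EpiLC, against 14.2 and 5.34 in R1 without and with activin A and 28.9 in E14. Of 7 Wnt receptors and inhibitors 3 were higher and 2 lower, of 6 Wnt targets 2 and 3, and of 8 genes of the epithelial to mesenchymal transition 4 and 3. Gbx2, a homeobox gene, was the single member of the anterior patterning list, with 27.2 FPKM in Otx2-/- EpiLC, against 18.7, 5.69 and 22.1 in R1 without, R1 with activin A and E14. The 3 Zscan4 copies, whose values are uncertain, were all lower in Otx2-/- EpiLC, and Zscan4d had 14.3 FPKM in Otx2-/- ESC, against 1.54 to 3.25 in the other ESCs.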
